A study of Ovis aries with 17 samples.

Results

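*ABHD5* and *ACLY*, which act in the breakdown and in the synthesis of lipid, were followed over the 6 subsets of sheep cells that the study hybridised to 17 one-colour arrays. They are 2 of 11311 genes measured above background, each read by 1 probe, and both passed the filter on dim probes. The pair was selected on measured values, namely these signals on these arrays by subset, so their levels are given as a description and carry no test. *ABHD5* was highest in spleen cells sorted as monocytes or macrophages (MP) and in dendritic cells (DC) grown in culture (MoDC), where every array lay above all arrays of the other 4 subsets. *ACLY* differed far less, by 1.70-fold between the highest and the lowest mean of the replicated subsets, with the means of MP and MoDC lowest, though with the slide that held the arrays as a block this difference was larger, 1.71 on the log2 scale.

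*ABHD5*, also called CGI-58, is the co-activator of adipose triglyceride lipase, the enzyme that opens the breakdown of stored triacylglycerol at the surface of lipid droplets. *ACLY*, ATP citrate lyase, splits citrate in the cytosol into oxaloacetate and acetyl-CoA, the carbon source for fatty acid and sterol synthesis. Macrophages store lipid taken up from debris and lipoproteins in droplets and mobilise it again, and activated phagocytes can route citrate through *ACLY*.

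All cells came from control sheep, whose age is not given in the sources used here. The study's methods name females of the Prealpe breed for the collection of blood. They do not state breed or sex for the spleens or the MoDC cultures. B lymphocytes (B, 4 arrays) and MP (3 arrays) were sorted from spleen, MP by the surface protein CD14. Plasmacytoid DC (pDC, 3 arrays), XCR1-negative DC (called cDC2, 3 arrays) and XCR1-positive DC (called cDC1, 1 array) were sorted from low-density blood cells, and MoDC (3 arrays) were produced in separate cultures with GM-CSF, a growth factor for myeloid cells. The study gives bone marrow cells as the starting material of the MoDC. The design text counts as many sheep or cultures as arrays in each subset, but the cDC sorts started from cells of several sheep, RNA of several animals was mixed where a sort gave too little, and the arrays concerned are not named. P-values therefore measure only the spread between these samples. The arrays lay on 4 slides: slides 1, 2 and 3 each held the B, pDC, MP and MoDC array of that replicate number, and slide 4 held B replicate 4, all cDC2 arrays and the cDC1 array. The cDC2 and cDC1 arrays thus shared a slide with other subsets only through B replicate 4.

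Depth is not defined for arrays, and their number limits the precision. Across arrays, the 75th percentile of spot brightness lay between 194 and 688 units, and 61.1% to 80.2% of spots were well above background. Symbols were found for 433 of 15060 probes, so a gene not found by name may still be on the array. *CD14* and the other MP markers found, 3 of 6, summed to between 5.40 and 6.98 in MP and between 5.99 and 6.78 in MoDC (log2 level), above 3.81 in every other array. *CSF1R*, one of the 3, was at -0.71 to -0.07 in MP but at -4.22 to -2.92 in MoDC, no higher than in cDC2, where it was at -3.46 to -2.19. The B marker *CR2* was between 4.20 and 4.25 in B and no higher than -0.53 elsewhere. T and NK cell markers, 5 of 11 found, summed to between 5.48 and 5.62 on the pDC arrays and to at most 3.25 on any other. On the MoDC arrays *CD3D* was not above background on any, *CD3E* was well above it on all 3 but lower than on every other array, and *GNLY*, at -1.78 to 0.23, was higher than on every B and MP array. *TCF4*, the pDC marker found (1 of 3), did not set pDC apart on these arrays, at 0.71 to 1.78 in pDC, 0.55 to 1.09 in B and 0.53 to 0.83 in cDC2. By qPCR, the study reports far more *TCF4* in sheep pDC than in the other sheep cell types it examined. It also proposes that pDC were mixed into its sheep cDC2, and B cells into its sheep pDC. *HBB* of red cells was well above background on all pDC, cDC2 and cDC1 arrays, and on 1 of the other 10. *LTF*, a granule protein of neutrophils and the granulocyte marker found (1 of 7), ranged from -0.20 to 1.54 in MoDC and was no higher than -0.99 elsewhere. Platelet and adipocyte markers were not found by name.

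The probes are shown because every value of *ABHD5* and *ACLY* below was read through them. Both are 60 bases long, are listed with a RefSeq accession and as unmapped on the genome, and took their symbols from the RefSeq genes of assembly ARS-UI_Ramb_v3.0 (sheep). The *ACLY* probe is printed whole and the *ABHD5* probe by its last 30 bases, 5′ to 3′, with the last triplet in capitals.
ACLY: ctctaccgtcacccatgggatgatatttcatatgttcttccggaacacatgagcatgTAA
ABHD5: cacacatttaaaccagttagtgccttcTAG
Read in triplets from its first base, each probe met no stop codon before the last triplet, which is one. This holds for 1.70% of the 15060 probes, and the position of either probe in its transcript was not determined. No other probe shared a run of 20 bases with either of them on either strand. The GC content was 38.3% for the *ABHD5* probe and 43.3% for the *ACLY* probe, against a median of 43.3% over all probes.

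Levels are given as log2 of the background-corrected signal minus the log2 of that array's 75th percentile, so that a level of 0 equals the percentile. Both probes were well above background on all 17 arrays and saturated on none. The error that the scanning software gives for a spot was at most 15.0% for *ABHD5* and 11.2% for *ACLY*, which covers 1 spot and no biological spread.

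*ABHD5* was at -0.04, 0.33 and -0.51 on the MP arrays, and its mean was -0.07 ± 0.42 (SD, n = 3). On the MoDC arrays it was at -0.98, -0.42 and -0.80, with a mean of -0.73 ± 0.29 (SD, n = 3). These 6 arrays lay above the other 11, and MP and MoDC overlapped. The pDC arrays were at -1.99, -2.35 and -2.41 (mean -2.25 ± 0.23, SD, n = 3), and the cDC2 arrays at -2.67, -2.89 and -2.67 (mean -2.74 ± 0.13, SD, n = 3). The pDC arrays lay below MoDC and above every cDC2, B and cDC1 array. No pDC array shared a slide with cDC2 or cDC1, and with the slide as a block cDC2 came 0.08 above pDC. B lymphocytes were at -2.79, -2.80, -2.65 and -3.32 (mean -2.89 ± 0.29, SD, n = 4), and the cDC1 array at -3.20, within the range of B. In these bulk samples, a smaller share of cells with the transcript and less transcript per cell cannot be told apart.

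**Figure D1:**
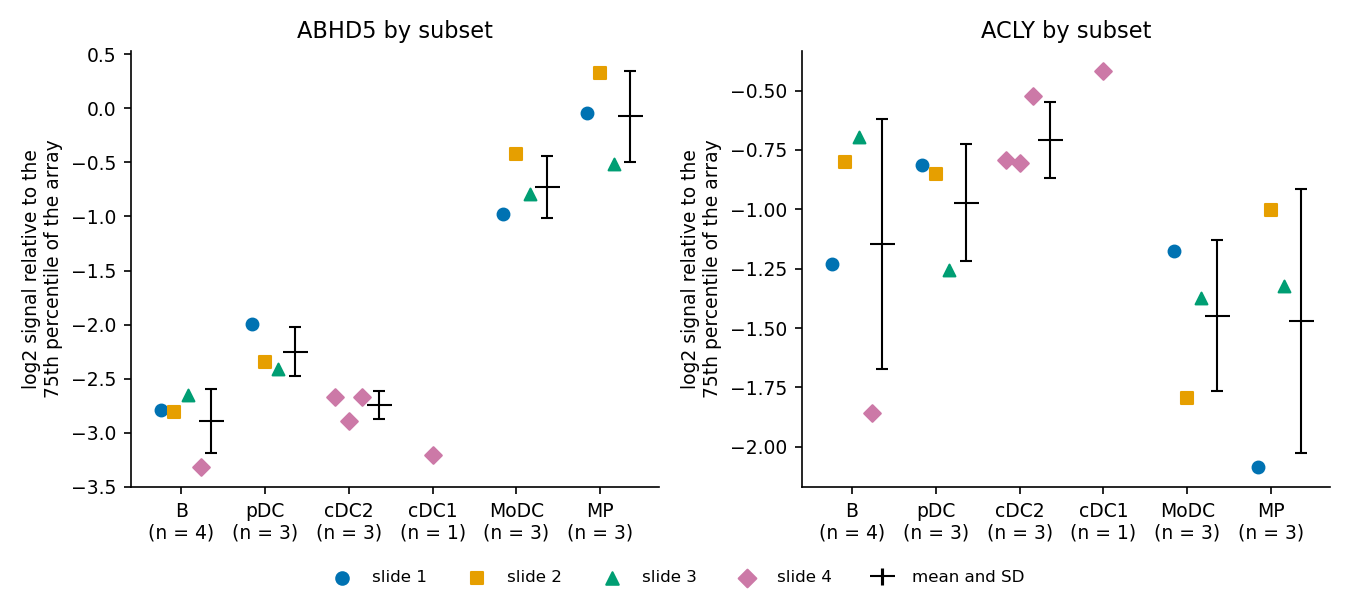
Level of ABHD5 (left) and ACLY (right) on each array by subset, as log2 signal relative to the 75th percentile of the array (vertical axes, which differ in range). Points are arrays, their colour and shape the slide, and bars the mean and SD of subsets with 3 or 4 arrays; for ABHD5 the 6 MoDC and MP arrays lie above all others, and for ACLY they lie below all cDC2 and cDC1 arrays.

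In order of the mean, *ABHD5* rose from cDC1 through B, cDC2, pDC and MoDC to MP. The steps between neighbours were 0.31, 0.15, 0.49, 1.52 and 0.66 on the log2 scale. The step from B to cDC2 was smaller than the SD of B, whereas the step from pDC to MoDC, 2.87-fold, was over the larger SD of the pair and without overlap. That step was 0.85 under normexp, a model-based background correction, and 1.05 in the authors' series table, against 1.52 here. MP exceeded B by 2.82, or 7.05-fold, and cDC2 by 2.67, or 6.35-fold, where under normexp these differences were 1.83 and 1.84. Among all genes tested, 2.54% had all MP and MoDC arrays above all others, and 5.67% had all pDC arrays above all B, cDC2 and cDC1 arrays. These shares stand beside the values that chose the gene and nothing is read from them.

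The order of *ABHD5* was the same on each of the 3 slides that held 4 subsets. On slides 1, 2 and 3 the array of MP was above that of MoDC, MoDC above pDC and pDC above B. MP exceeded B by 2.75, 3.13 and 2.14, MoDC exceeded pDC by 1.01, 1.93 and 1.61, and MP exceeded MoDC by 0.94, 0.75 and 0.28. MP and MoDC, whose ranges overlap over all arrays, thus kept their order within every slide. On slide 4, cDC2 lay 0.58 above B replicate 4 and cDC1 lay 0.12 above it. B replicate 4 was itself 0.57 below the mean of B replicates 1 to 3. With the slide as a block, MP exceeded B by 2.68, pDC by 2.18, and cDC2 by 2.10, and cDC2 came 0.08 above pDC instead of 0.49 below it.

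**Figure D2:**
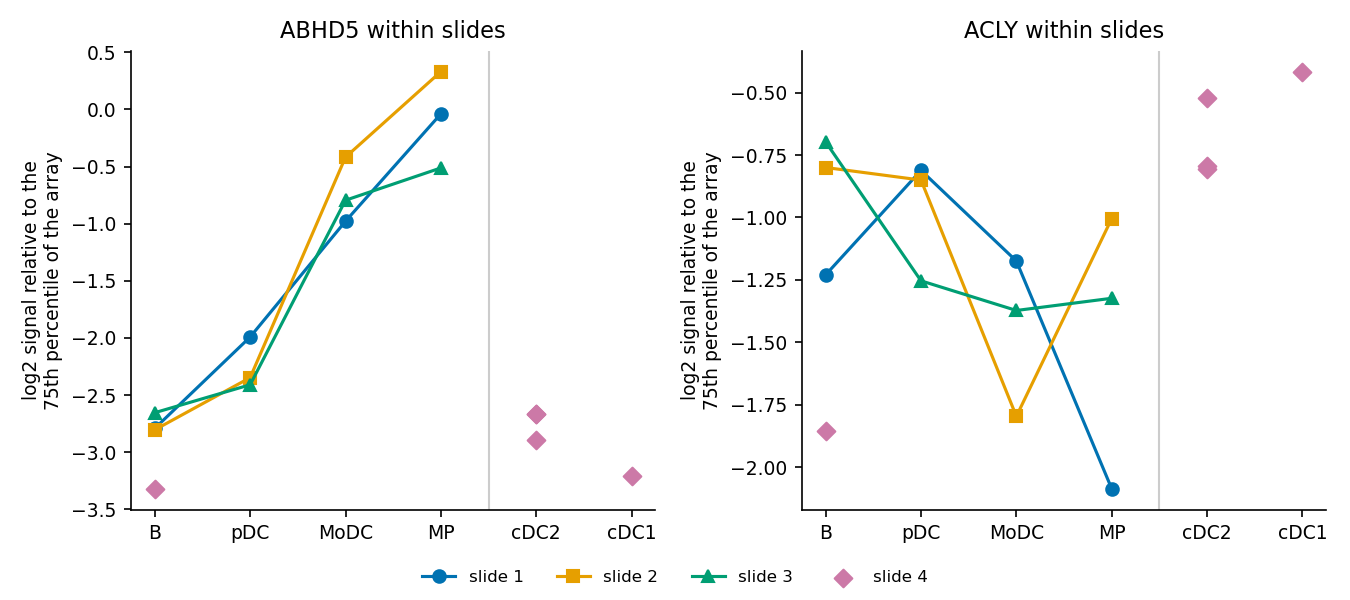
Level of ABHD5 (left) and ACLY (right) by slide, as log2 signal relative to the 75th percentile of the array. Lines join the B, pDC, MoDC and MP arrays of slides 1, 2 and 3, and single points are the arrays of slide 4; the 3 lines of ABHD5 rise at every step, while those of ACLY cross.

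The mean of *ACLY* was highest in cDC1 and cDC2. It was at -0.42 on the cDC1 array and at -0.79, -0.80 and -0.52 on the cDC2 arrays (mean -0.71 ± 0.16, SD, n = 3). The pDC arrays were at -0.81, -0.85 and -1.25 (mean -0.97 ± 0.24, SD, n = 3). Every cDC2 array lay above every pDC array, though the nearest pair stood at -0.80 and -0.81. B lymphocytes spread widely, at -1.23, -0.80, -0.70 and -1.86 (mean -1.15 ± 0.53, SD, n = 4). The MoDC arrays were at -1.17, -1.80 and -1.37 (mean -1.45 ± 0.32, SD, n = 3), and the MP arrays at -2.09, -1.0 and -1.32 (mean -1.47 ± 0.56, SD, n = 3). All cDC2 arrays were above all MP and MoDC arrays, while B overlapped with cDC2, pDC, MoDC and MP. Of all genes tested, 14.3% had the cDC2 arrays above the MP and MoDC arrays in this way.

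From the lowest mean, the order of *ACLY* was MP, MoDC, B, pDC, cDC2 and cDC1. The steps were 0.02, 0.30, 0.17, 0.26 and 0.29 on the log2 scale, and the first 3 were smaller than the larger SD of the neighbours. Those 4 subsets were therefore not separated from one another, neighbour by neighbour, beyond the spread between arrays. The highest and lowest means of the replicated subsets, cDC2 and MP, differed by 0.76, or 1.70-fold.

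Within slides, the *ACLY* array of pDC was above that of MP and of MoDC on slides 1, 2 and 3, by 1.28, 0.15 and 0.07 against MP and by 0.36, 0.95 and 0.12 against MoDC. Against B the pDC array was 0.42 higher on slide 1, then 0.05 and 0.56 lower on slides 2 and 3, so their order was not kept. The MP array was below that of B on each of these slides, with differences of -0.86, -0.20 and -0.63. On slide 4, cDC2 lay 1.15 above B replicate 4, which was 0.95 below the mean of the other B arrays, and cDC1 lay 1.44 above it. With the slide as a block, the difference between cDC2 and MP was 1.71 in place of 0.76, and it then rests on that 1 B array, while the difference of pDC from B turned from 0.17 to -0.06.

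Set against all genes tested, the difference between the highest and the lowest mean of the 5 replicated subsets was larger for *ABHD5* than for 76.2% of genes, and for *ACLY* it was larger than for 10.6%. The median gene spanned 1.69. With the slide as a block the share, computed after the data were seen, was 75.9% for *ABHD5* and 54.5% for *ACLY*, whose difference was then 1.71 against 1.58 for the median gene. Over the 17 arrays the 2 genes ran against each other, with a Pearson's r of -0.51 and a Spearman's rho of -0.48, and r was -0.38 after quantile normalization. The arrays share slides and only 6 subsets, so this is a description of these arrays.

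Cell type markers moved with both genes. Over the 17 arrays, *ABHD5* correlated with the *CD14* probes at 0.77 and 0.83 and with *ITGAM* at 0.78, and *LTF* had an r of 0.59 with it. *ACLY* correlated with *HBB* at 0.68, the highest r among the markers found, and *ABHD5* with *HBB* at -0.60. With *ACLY* the r was -0.59 for *ITGAM* and 0.52 for *FLT3*. It ran from 0.28 to 0.43 for the T and NK cell markers and from 0.003 to 0.45 for the cDC1 markers. *HBB* was at 0.83 on the cDC1 array, at -2.88, 0.42 and -0.42 in cDC2 and at -0.21, -2.82 and -2.45 in pDC. It was not well above background on any MP or MoDC array. Of the T and NK cell markers, *CD3D*, *CD3E*, *CD247* and *GNLY* had an r of -0.65, -0.57, -0.67 and -0.27 with *ABHD5*, and *CD28* had one of 0.34. The part of other cells in either pattern was not tested.

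To place the pair in its pathway, 127 other genes of lipid synthesis, storage, breakdown, uptake and oxidation were looked up. Of these, 13 were on the array by name and 11 could be tested. *SCD5* did not rise well above background on any of the 17 arrays. *ACACA*, whose enzyme uses the acetyl-CoA that *ACLY* makes, lost an array to an outlier flag and was well above background on 3 of the other 16. No gene of the uptake and transport list (0 of 20) was found by name, and the lipase that ABHD5 activates, *PNPLA2*, was not among the 13 genes.

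The 5 replicated subsets were compared in 10 pairs with limma, and a gene was called at an adjusted p below 0.05 with at least a 2-fold difference. Of the 11 genes, 9 were called in at least 1 pair, *DGAT1* and *CPT1A* in none, and of all genes tested 65.1% were called in at least 1 pair. Of 110 comparisons of a gene in a pair, 46 were called, where over all genes 24.2% of such comparisons were. *LPL* and *STAR* passed the filter on dim probes through MoDC alone, where they are high, so that they had to differ from other subsets, and 8 of the 46 calls are theirs in pairs with MoDC. Their values are a description, and the counts and medians by pair given further on include them.

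**Figure D3:**
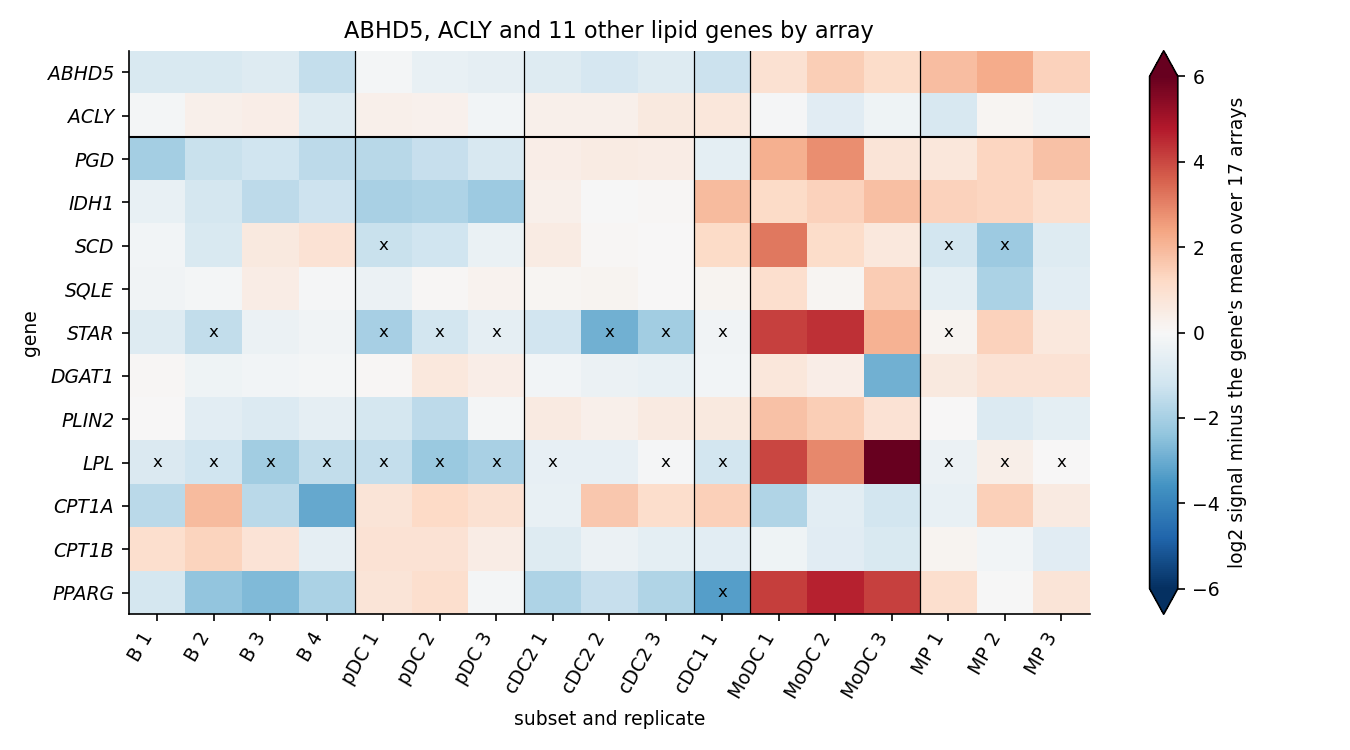
Levels of ABHD5, ACLY and the 11 lipid genes tested (rows) on the 17 arrays (columns, by subset and replicate), each as log2 signal minus the gene's mean over the arrays (colour scale, which ends at 6 and saturates beyond). Crosses mark arrays where the probe was not well above background; PGD and IDH1 are high in MoDC and MP together, and STAR, LPL and PPARG are highest in MoDC.

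*PGD* and *IDH1*, whose enzymes make NADPH for lipid synthesis, were high in MP and in MoDC alike. *PGD* encodes 6-phosphogluconate dehydrogenase of the pentose phosphate pathway, and *IDH1* the NADP-dependent isocitrate dehydrogenase of the cytosol. *PGD* was at 2.91, 3.49 and 4.0 in MP and at 4.36, 4.99 and 3.01 in MoDC, against 0.20 to 1.01 in B and 0.58 to 1.26 in pDC. MP and MoDC overlapped with neither B nor pDC, and cDC2 stood between them, at 2.62, 2.70 and 2.65. *PGD* exceeded B by 2.78 ± 0.41 in MP, 3.44 ± 0.41 in MoDC and 1.97 ± 0.41 in cDC2 (SE, limma adjusted p = 0.000141, 1.13e-05 and 0.00268), the last call being lost with the slide as a block, where the difference was 2.00 ± 0.62 (SE, adjusted p = 0.0767).

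*IDH1* followed the same division. It was at 4.50, 4.38 and 4.12 in MP and at 4.27, 4.48 and 4.90 in MoDC, against 1.17, 1.24 and 0.94 in pDC. *IDH1* exceeded pDC by 3.22 ± 0.30 in MP, 3.43 ± 0.30 in MoDC and 2.11 ± 0.30 in cDC2 (SE, adjusted p = 2.47e-06, 5.97e-07 and 0.000178). On the cDC1 array *IDH1* was at 5.03, above its highest value of 4.90 in any other array, whereas *PGD* was at 1.62, between pDC and cDC2. Over the arrays the r with *ABHD5* was 0.73 for *PGD* and 0.57 for *IDH1*, and the r with *ACLY* was -0.30 and -0.21.

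*SCD* and *SQLE* were higher in MoDC than in MP. *SCD*, the desaturase that makes monounsaturated fatty acids, was at -0.42, -2.47 and -2.95 in MoDC and between -5.74 and -4.32 in MP, where 1 of 3 arrays was well above background. The difference between MP and MoDC was -2.97 ± 0.61 (SE, adjusted p = 0.00253). Under normexp background correction that difference was -0.79 (adjusted p = 0.151), and *SCD* was called in no pair. Its call between MoDC and B was lost under 12 of 23 alternatives. *SQLE*, squalene epoxidase of sterol synthesis, was at 4.23, 3.32 and 4.71 in MoDC and at 2.64, 1.33 and 2.60 in MP, a difference of -1.90 ± 0.40 (SE, adjusted p = 0.00285). It was called in this pair only, and in up to 5 pairs under other settings, the last without MoDC replicate 2.

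*STAR*, which carries cholesterol into mitochondria, was at -0.77, -0.52 and -2.79 in MoDC. It was between -4.72 and -3.49 in MP and no higher than -5.08 elsewhere, and was not well above background on any pDC array. *STAR* in MoDC was at least 15.4-fold that in pDC, and exceeded B by 4.21 and cDC2, of which 1 of 3 arrays was well above background, by 5.57. The differences of *STAR* from B and cDC2 were 1.88 and 2.11 under normexp background correction and 3.34 and 3.89 in the authors' series table. The bound against pDC was 12.6-fold without MoDC replicate 1, 11.5-fold without replicate 2 and 25.2-fold without replicate 3. It holds for this scaling only, since the fitted difference of *STAR* between MoDC and pDC was 1.86 under normexp and 3.55 in the series table, both smaller than the bound. Its other probe, well above background on 4 arrays, had an r of 0.94 with it.

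Lipid droplets are coated by perilipins. *PLIN2*, the perilipin of most non-adipose cells, was at 2.23, 1.96 and 1.35 in MoDC, above every other array. In MP it was at 0.51, -0.36 and -0.10, overlapping with B and with pDC. MoDC exceeded B by 1.88 ± 0.36 and pDC by 2.28 ± 0.38 (SE, adjusted p = 0.000696 and 0.000295), and MP was 1.83 below MoDC (adjusted p = 0.00274). The subset in which *ABHD5* was highest was thus not the one highest in *PLIN2*, and the r of the 2 genes was 0.18. *DGAT1*, which makes triacylglycerol, was at 0.14, -0.15 and -3.42 in MoDC and at 0.04, 0.33 and 0.35 in MP. MoDC replicate 3 was over 3 log2 units below the others, and without it the difference between MP and cDC2 was called, as it was in the authors' series table. Without MoDC replicate 1, the difference between MP and MoDC was called instead.

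*LPL*, lipoprotein lipase, was the only gene of the lipolysis list found by name, 1 of 13. It was well above background on all 3 MoDC arrays, at -1.56, -2.72 and 0.92, and on 1 of the other 14, a cDC2 array. Against subsets with no array above background, MoDC was at least 25.2-fold higher than B, 18.2-fold higher than pDC and 13.2-fold higher than MP. For each of these bounds the dim subset was set, array by array, to the higher of its own signal and the dimmest signal above background. *LPL* was brightest on MoDC replicate 3, and without that array the bounds were 12.4-fold, 8.96-fold and 6.51-fold. The bounds hold for this scaling only, since under normexp background correction the fitted differences of MoDC, 2.21 from B and 2.13 from pDC, and that of MP from MoDC, -1.78, were smaller than each bound. A call between MP and pDC, both not above background, was lost under 18 of 23 alternatives and is given no fold.

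*PPARG*, the nuclear receptor that drives lipid storage genes, was at 2.91, 3.39 and 2.90 in MoDC and no higher than -0.20 on any other array. MoDC exceeded B by 6.28 ± 0.40, cDC2 by 5.96 ± 0.43 and pDC by 3.74 ± 0.43 (SE, adjusted p = 2.62e-08, 2.50e-07 and 9.02e-06), and the difference of MP from MoDC was -3.71 ± 0.43 (adjusted p = 2.69e-05). MP, at -0.24, -1.24 and -0.45, and pDC, at -0.46, -0.20 and -1.37, overlapped with each other, and both were above B (2.58 and 2.54, adjusted p = 0.000227 and 0.000907), by 1.65 and 1.54 under normexp background correction. The calls of MP above cDC2 by 2.26 and of cDC2 minus pDC at -2.23 were lost with the slide as a block, where the differences were 2.37 and -2.34 with a larger SE (adjusted p = 0.149 and 0.107). Over the arrays the r of *PPARG* was 0.72 with *ABHD5* and -0.53 with *ACLY*.

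The carnitine palmitoyltransferases *CPT1A* and *CPT1B*, which admit fatty acids to mitochondria for oxidation, did not follow *ABHD5* (r of -0.02 and -0.26). *CPT1A* was called in no pair. It was at 0.08 on B replicate 2 and between -4.88 and -3.42 on the other B arrays, and without B replicate 2 it was called in 5 pairs, among them pDC above B by 3.07 (adjusted p = 0.00612) and MP above B by 2.60 (adjusted p = 0.00562). With the replicate number as a block it was called in 3 pairs, all lower in MoDC. The difference of MoDC was -2.14 from pDC and -1.92 from cDC2, and that of MP from MoDC was 1.67 (adjusted p = 0.0108, 0.0188 and 0.0432). With the slide as a block it was also called in 3 pairs, lower in MoDC than in pDC and cDC2 and higher in cDC2 than in B, with differences of -2.14, -4.54 and 3.81 (adjusted p = 0.0200, 0.0288 and 0.0261). It was the 1 gene of the 11 whose r with *ACLY* was above 0.5, at 0.55. *CPT1B* was lower in MoDC than in B and pDC, with differences of -1.29 and -1.36 (adjusted p = 0.0162 and 0.0192), and lower in cDC2 than in B and pDC (-1.22 and -1.30, adjusted p = 0.0325 and 0.0382). The difference of MP from B was -0.88 (adjusted p = 0.117), and it was called at -1.27 with the slide or the replicate number as a block (adjusted p = 0.00156 and 0.00395) and without B replicate 4 (adjusted p = 0.00705). *CPT1B* was called in no pair under normexp background correction, and the calls of MoDC were also lost under quantile normalization (-0.84 and -0.96) and in the authors' series table (-0.78 and -0.85). Both cDC2 calls were lost without any 1 of the cDC2 arrays and with the slide as a block, where the difference to B was -0.03 and that to pDC turned to 0.29. On slide 4, *CPT1B* was at -3.24 on the B array and between -3.46 and -3.04 in cDC2.

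By pair, the calls among the 11 genes were as follows, beside the share of all genes called in the same direction. In MP against B, 3 were higher and 0 lower, against 11.3% and 13.0% of all genes. In MP against pDC, 4 were higher and 0 lower, against 12.9% and 13.1%, and one of the 4 was *LPL*, not above background in either. In MP against cDC2, 3 were higher and 0 lower, against 5.0% and 6.24%, and all 3 calls (*IDH1*, *PPARG* and *STAR*) were lost with the slide as a block, at differences of 0.90, 2.37 and 3.42 in place of 1.11, 2.26 and 2.78. *STAR* was well above background on 2 of 3 MP arrays and 1 of 3 cDC2 arrays. The median log2 difference of the list in these pairs was 1.40, 0.39 and 0.35, where that of all genes was -0.11, -0.06 and -0.09.

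In MoDC against B and against pDC, 7 were higher and 1 lower, the latter *CPT1B* both times, against 14.6% and 21.5% of all genes for B and 14.6% and 18.3% for pDC. In MoDC against cDC2, 5 were higher and 0 lower, against 13.2% and 20.3%. The list medians were 1.88, 2.60 and 1.32 where those of all genes were -0.31, -0.27 and -0.32. In MP against MoDC, 0 were higher and 6 lower, namely *LPL*, *PLIN2*, *PPARG*, *SCD*, *SQLE* and *STAR*, against 14.4% and 11.4%. These counts and medians include *LPL* and *STAR*, which had to differ in pairs with MoDC, so no contrast with all genes is drawn from them. Apart from these 2, the genes higher in MoDC than in B and in pDC were *IDH1*, *PGD*, *PLIN2*, *PPARG* and *SCD*. Those higher than in cDC2 were *IDH1*, *PGD* and *PPARG*. The mean of *ABHD5*, which carries no test, was 0.66 higher in MP than in MoDC, with overlapping ranges.

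In pDC against B, 1 gene was higher (*PPARG*) and 0 lower, against 4.41% and 4.81% of all genes. In cDC2 against B, 2 were higher (*IDH1* and *PGD*) and 1 lower, *CPT1B*, against 11.4% and 11.7%. In cDC2 against pDC, 3 were higher, these 2 and *PLIN2*, and 2 lower, *CPT1B* and *PPARG*, against 10.9% and 9.34%. With the slide as a block, 33 of the 46 calls remained, and those lost were 12 calls that involve cDC2 and the one of *LPL* between MP and pDC.

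Last, the genes whose levels ran most like *ABHD5* and *ACLY* were listed over the 17 arrays, among 267 other genes with a symbol. For *ABHD5* the 5 with the highest Pearson's r were *SLC2A3*, a glucose transporter (0.88), *PDXK*, pyridoxal kinase (0.85), *IL1B*, the inflammatory cytokine interleukin-1 beta (0.80), *CAPN2*, a calcium-dependent protease (0.79), and *ITGAM*, the integrin subunit CD11b (0.78), one of the MP markers above. Apart from *CAPN2*, each had all MP and MoDC arrays above all others, as 2.54% of all genes tested had. They were picked for likeness to *ABHD5*, which has this division too, so nothing is read from it. *SLC2A3* was at 5.85 ± 0.76 (SD, n = 3) in MP, 5.71 ± 0.65 in MoDC and 2.83 ± 0.23 (n = 4) in B, close to the *ABHD5* profile, whereas *IL1B* was higher in MoDC (4.24 ± 1.74) than in MP (1.60 ± 0.95). By rank correlation 1 of these 5 genes stayed among the first 5, and after quantile normalization 4 did. The lowest r were those of *CA11*, a carbonic anhydrase-related gene (-0.85), and *IGF2*, a growth factor (-0.83), the latter well above background on 10 of the 17 arrays.

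For *ACLY* the r were lower. The first 5 were *HBB* (0.68), *IRF8*, a transcription factor of DC development (0.64), *YBX2* (0.61), *CD80*, a co-stimulatory molecule (0.61), and *CA11* (0.58). *IRF8* was at 6.44 on the cDC1 array, 4.85 ± 0.67 in pDC and 4.29 ± 0.18 in cDC2 (SD, n = 3 each), against 2.50 ± 0.20 in MP and 1.67 ± 0.80 in MoDC. Under rank correlation and after quantile normalization 3 of the 5 stayed. *RTP4*, an interferon-induced gene, and *LPAR1*, a receptor for lysophosphatidic acid, had the lowest r (both -0.76). *LPAR1* was well above background on only 7 of the 17 arrays. Of the 267 genes, 56 had an r above 0.5 with *ABHD5* and 13 with *ACLY*, and of the 11 lipid genes 5 and 1 did. *STAR* and *LPL* are among the 5, and having passed the filter through MoDC alone, where *ABHD5* is also high, they are no support for the count.

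**Figure D4:**
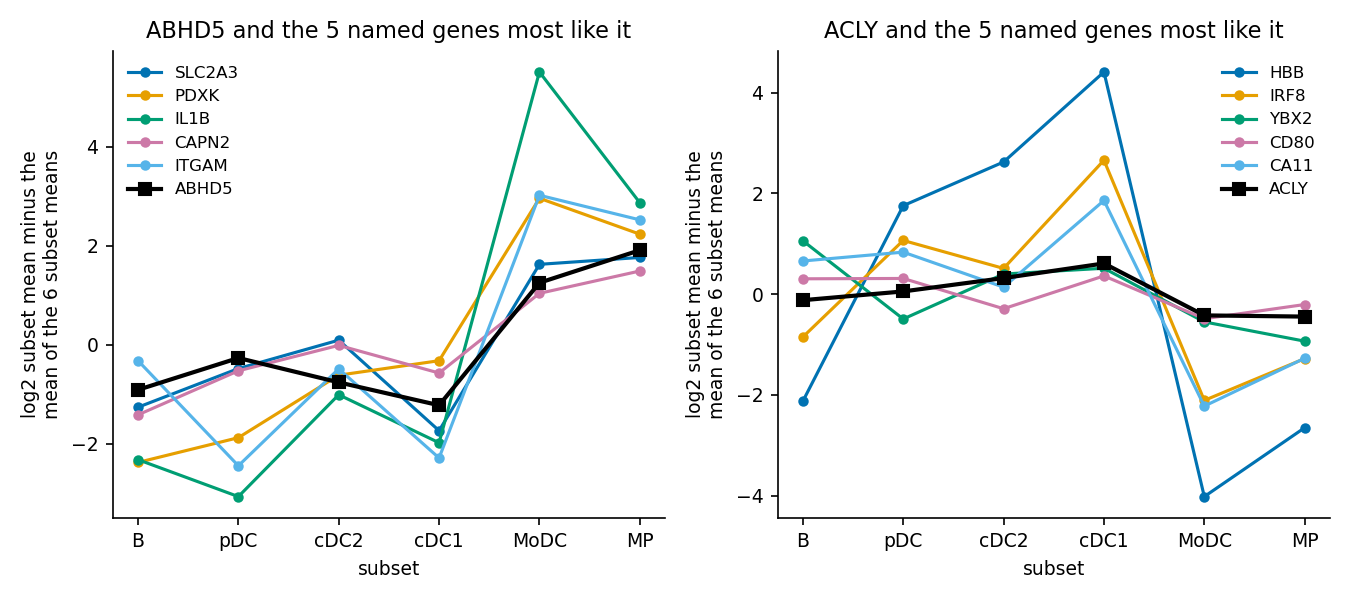
Subset means of ABHD5 (left, black) and ACLY (right, black) and of the 5 genes with a symbol and the highest Pearson's r to each over 17 arrays, as log2 level minus the mean of the 6 subset means (vertical axes). cDC1 is 1 array; the genes beside ABHD5 rise together in MoDC and MP, while HBB, IRF8 and CA11 swing far more between subsets than ACLY.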

How the data were processed

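RNA of 17 samples was amplified, labelled with Cy3 and hybridised by the authors to 1-colour Agilent arrays. The deposited scanner files hold a background-corrected signal intensity per spot on a linear scale, from Feature Extraction 10.7.3.1 (12 arrays) or 10.10.1.1 (5 arrays, slide 4), with flags for background, saturation and outliers. The authors' series table holds log2 values whose normalization is not stated in the file. Its rows were aligned with spots sorted by probe name (r of 0.969 to 0.988 with the own array, the best match for 16 of 17 columns, the exception being cDC2 replicate 2, closest to replicate 3), and it served as an alternative only. The submitters' notes name limma.

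Outlier spots (273) were left out. Levels are log2 intensity minus log2 of the 75th percentile of the array, with replicate spots averaged. The filter on dim probes asked for over 50% of a probe's spots to be well above background throughout at least 1 subset, which 11549 of 14842 probes met, and the brightest probe stood for a gene (11311 genes). Symbols came from RefSeq accessions (294 probes) or the files (139). *ABHD5* and *ACLY* and all gene lists were chosen with earlier results of these data known. One gene of the lipid list is not reported here and entered no count of the list or of genes with a symbol.

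Pairs of the 5 replicated subsets were compared with limma 3.58.1 in R 4.3.3 (group means over 17 arrays, Benjamini-Hochberg adjustment over all genes), which was tested on simulated data. Genes given with values are *ABHD5*, *ACLY*, the lipid genes tested and, for each member, the 5 genes of highest and 2 of lowest Pearson's r over the arrays. Same-numbered arrays of B, pDC, MP and MoDC shared a slide and deviated together from their group means (18 of 18 pairs with r over 0.1, from 0.101 to 0.561), while those of cDC2 with the others did not (0 of 12). Alternatives were normexp background correction (offset 50, with the median spot signal on slide 1, where the mean was not used), quantile normalization, the series table, the slide or the replicate number as a block, no filter, no minimum fold, and leaving out each array in turn.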

Additional observations from a re-analysis of the deposited data

Results flagged for a closer look

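One gene of the lipid list had a B array apart from the other 3 by Dixon's test, in which 1 group in 20 is marked by chance and 13 groups were looked at. *SQLE* was at 3.67 on B replicate 3, while the other B arrays lay between 3.01 and 3.12. *ABHD5* and *ACLY* had no such array.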

How the results depend on the processing

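The difference between the highest and the lowest mean of the 5 replicated subsets for *ABHD5*, 2.82, was 1.84 with normexp background correction and 2.34 in the authors' series table, both with cDC2 instead of B lowest, and ran from 2.62 to 3.04 when single arrays were left out. MP stayed highest and MoDC next under every setting run. For *ACLY* the difference of 0.76 became 1.71 with the slide as a block and lay between 0.67 and 1.00 without single arrays. cDC2 stayed highest of the replicated subsets throughout, and MoDC replaced MP as lowest with normexp and without MP replicate 1, MoDC replicate 1 or MoDC replicate 3. With the replicate block (numbers 1 to 3) the values were 2.68 and 0.76, the lipid list had 10 genes called instead of 9 and 49 calls instead of 46, of which 45 were shared, the one lost being *LPL* between MP and pDC. Over the settings the list had 7 to 10 genes called and 35 to 58 calls, the latter count being added after the data were seen, and 9 to 10 genes and 39 to 58 calls without single arrays, the most without MoDC replicate 3. One call turned, *CPT1B* between cDC2 and pDC with the slide as a block. Between subsets the median difference of all genes ran from -0.32 to 0.22, and another scaling moved it by up to 0.27. The number of arrays limits the precision, and cDC1 has 1.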
